A study of Mus musculus with 12 samples.

Results

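The insulin and IGF signalling genes described here are a list of 9 genes drawn up by their roles in the pathway: the receptor genes Insr, Igf1r and Igf2r, the binding protein gene Igfbp4, the substrate genes Irs1 and Irs2, the kinase genes Akt1 and Akt2, and the transcription factor gene Foxo1. The list keeps only genes present among the 12643 genes of the count tables, and no threshold on a measured value defines it. It was chosen with earlier results of these data known. The cells were MIN6, a mouse insulinoma line used as a model of the pancreatic beta cell, at passage 29 and grown in high-glucose DMEM. All cultures were nucleofected with an siRNA and collected 72 h later. The 4 groups of 3 libraries were Pdx1 siRNA IP, NT siRNA IP, Pdx1 siRNA total and NT siRNA total. IP denotes RNA bound to ribosomes that were purified through a tag (translating ribosome affinity purification, TRAP), and total denotes the RNA of the whole lysate. Pdx1 encodes a homeodomain transcription factor of beta cells, and NT is the control siRNA. A single line at a single passage stands for the beta cell here. The tagged protein is not given in the sources used here.

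Insulin and the insulin-like growth factors signal through the receptor tyrosine kinases INSR and IGF1R, which phosphorylate the docking proteins IRS1 and IRS2. These recruit PI3-kinase, whose lipid product activates the kinases AKT1 and AKT2, and AKT phosphorylates FOXO1 and thereby keeps it out of the nucleus. IGF2R takes up IGF2 for lysosomal degradation and carries mannose-6-phosphate-tagged enzymes to lysosomes, and IGFBP4 binds IGFs outside the cell and keeps them from their receptors. In beta cells this pathway is known for its part in growth and survival, with IRS2 as the docking protein that mouse knockouts tie to beta-cell mass, and FOXO1 has been described in mice as an opponent of Pdx1.

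The bases upstream of the annotated transcription starts show how these promoters are built, and they are given for the gene that changed most (Igfbp4), for both docking protein genes and for Akt1. They come from RefSeq promoters on build GRCm38.p6, whose table held 8 of the 9 genes; Insr is named only. Each run of 250 bases is written 5′ to 3′ on the strand of the gene and ends at the base before the start. The Igfbp4 run is chr11:99040994-99041243 on the plus strand. It ends at the only start the promoter table gives for this gene, which lies inside the wider RefSeq span of the gene given further on. The other runs lie on the minus strand, at chr1:82291440-82291689 for Irs1, chr8:11008930-11009179 for Irs2 and chr12:112674885-112675134 for the upstream start of Akt1. Capitals mark matches, on either strand, to TATAAA (the TATA box), CAAAACA (the core of the insulin response sequence), GTAAACA (a FOXO binding element) or TAATTA (a core bound by PDX1 and other homeodomain proteins), none of which overlapped another.
Igfbp4: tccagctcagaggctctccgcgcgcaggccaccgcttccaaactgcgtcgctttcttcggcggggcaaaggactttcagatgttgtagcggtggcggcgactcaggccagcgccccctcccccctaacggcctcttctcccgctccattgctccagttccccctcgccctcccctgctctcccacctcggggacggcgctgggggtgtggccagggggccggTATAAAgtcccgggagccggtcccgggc
Irs1: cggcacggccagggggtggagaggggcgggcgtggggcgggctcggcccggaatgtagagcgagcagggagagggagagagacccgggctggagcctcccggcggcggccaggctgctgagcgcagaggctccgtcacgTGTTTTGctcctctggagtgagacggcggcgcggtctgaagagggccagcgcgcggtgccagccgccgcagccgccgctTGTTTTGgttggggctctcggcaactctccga
Irs2: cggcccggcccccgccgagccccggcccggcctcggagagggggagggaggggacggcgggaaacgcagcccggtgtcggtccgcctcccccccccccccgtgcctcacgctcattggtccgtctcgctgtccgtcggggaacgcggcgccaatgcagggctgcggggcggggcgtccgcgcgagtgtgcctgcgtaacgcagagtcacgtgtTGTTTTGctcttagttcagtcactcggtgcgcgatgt
Akt1: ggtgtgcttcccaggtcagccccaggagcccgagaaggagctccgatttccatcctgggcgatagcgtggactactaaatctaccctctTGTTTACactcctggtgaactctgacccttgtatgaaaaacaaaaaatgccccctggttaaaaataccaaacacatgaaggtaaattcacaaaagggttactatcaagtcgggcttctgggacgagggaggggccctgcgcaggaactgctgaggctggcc

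Igfbp4 held a TATA box starting at position -28, counted back from -1 at the base before the start. Irs1 held the insulin response core at -111 and at -32, and Irs2 held it at -37, so the docking protein genes share this element close to their starts. The upstream start of Akt1 held a FOXO element at -161, and the window of its second start, chr12:112674277-112674526, held none of the 4 motifs. Across all 32851 promoter windows of the table, the upstream 250 bases held TATAAA in 12.4%, CAAAACA in 5.56%, GTAAACA in 3.17% and TAATTA in 4.84%. The windows of Igf1r, Igf2r, Akt2 and Foxo1 held none of these letters, and no window of the 8 genes held TAATTA. The printed windows of Igfbp4, Irs1 and Irs2 were rich in CpG dinucleotides (22, 28 and 34, against a median of 6 over all windows), while the upstream window of Akt1 held 7 and its second window 31.

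The libraries held 29430690 to 45806807 counts over all genes, and the 9 genes had between 173 and 19642 counts in a library. Levels are CPM, a gene's count scaled to the library's total after adjustment by the TMM method, whose factors were 0.752 to 0.866 in Pdx1 siRNA IP, 0.984 to 1.011 in NT IP, 0.95 to 1.066 in Pdx1 siRNA total and 1.22 to 1.231 in NT total RNA. A gene counts as changed when its adjusted p in edgeR's quasi-likelihood test is under 0.05. Nothing in the labels ties replicates to separate cultures, and p-values therefore cover the spread among these libraries, part of which may be technical. Pdx1 was 2.42-fold lower with its siRNA in IP RNA and 2.29-fold lower in total RNA. NT IP replicate 3 and the 3 Pdx1 siRNA IP libraries stood apart from the other libraries at the gene Rpl32l. It had 22 to 37 counts in the Pdx1 siRNA IP libraries and 29 in NT IP replicate 3, against 1726 and 1260 in NT IP replicates 1 and 2. In total RNA it had 699 to 838 counts with Pdx1 siRNA and 932 to 1131 with NT. This Rpl32l split was seen in the counts and is no label of the study, and its cause was not tested. A fit with a term for it reads the siRNA effect in IP RNA against NT IP replicate 3, a single library whose spread is taken from the other groups. All 10 beta-cell markers of a list were measured, and their summed level was 186000 to 230000 CPM in Pdx1 siRNA IP, 205000 to 240000 in NT IP, 95000 to 101000 in Pdx1 siRNA total and 105000 to 116000 in NT total RNA. Gene by gene they were split. With Pdx1 siRNA 2 were called higher and 4 lower in IP RNA, where 29.2% of all genes were higher and 30.4% lower. In total RNA 3 were called higher and 3 lower, where 23.8% of all genes were higher and 29.2% lower. The 6 measured of 11 listed markers of other islet cells, among them the glucagon gene Gcg, summed to 61400 to 77500 CPM in Pdx1 siRNA IP against 19700 to 23900 in NT IP, and to 31500 to 35200 in Pdx1 siRNA total against 10800 to 13000 in NT total RNA. Their part in the results below was not tested. Of 7 acinar and duct markers 1 was measured (Spp1, at 202 to 287 CPM in Pdx1 siRNA IP, 89.7 to 97.0 in NT IP, 178 to 235 in Pdx1 siRNA total and 73.1 to 76.1 in NT total RNA). Of 9 listed immune, endothelial and stromal markers 0 were among the 12643 genes. A marker absent from the count tables has no level here, and its absence is not a measured 0.

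**Figure D1:**
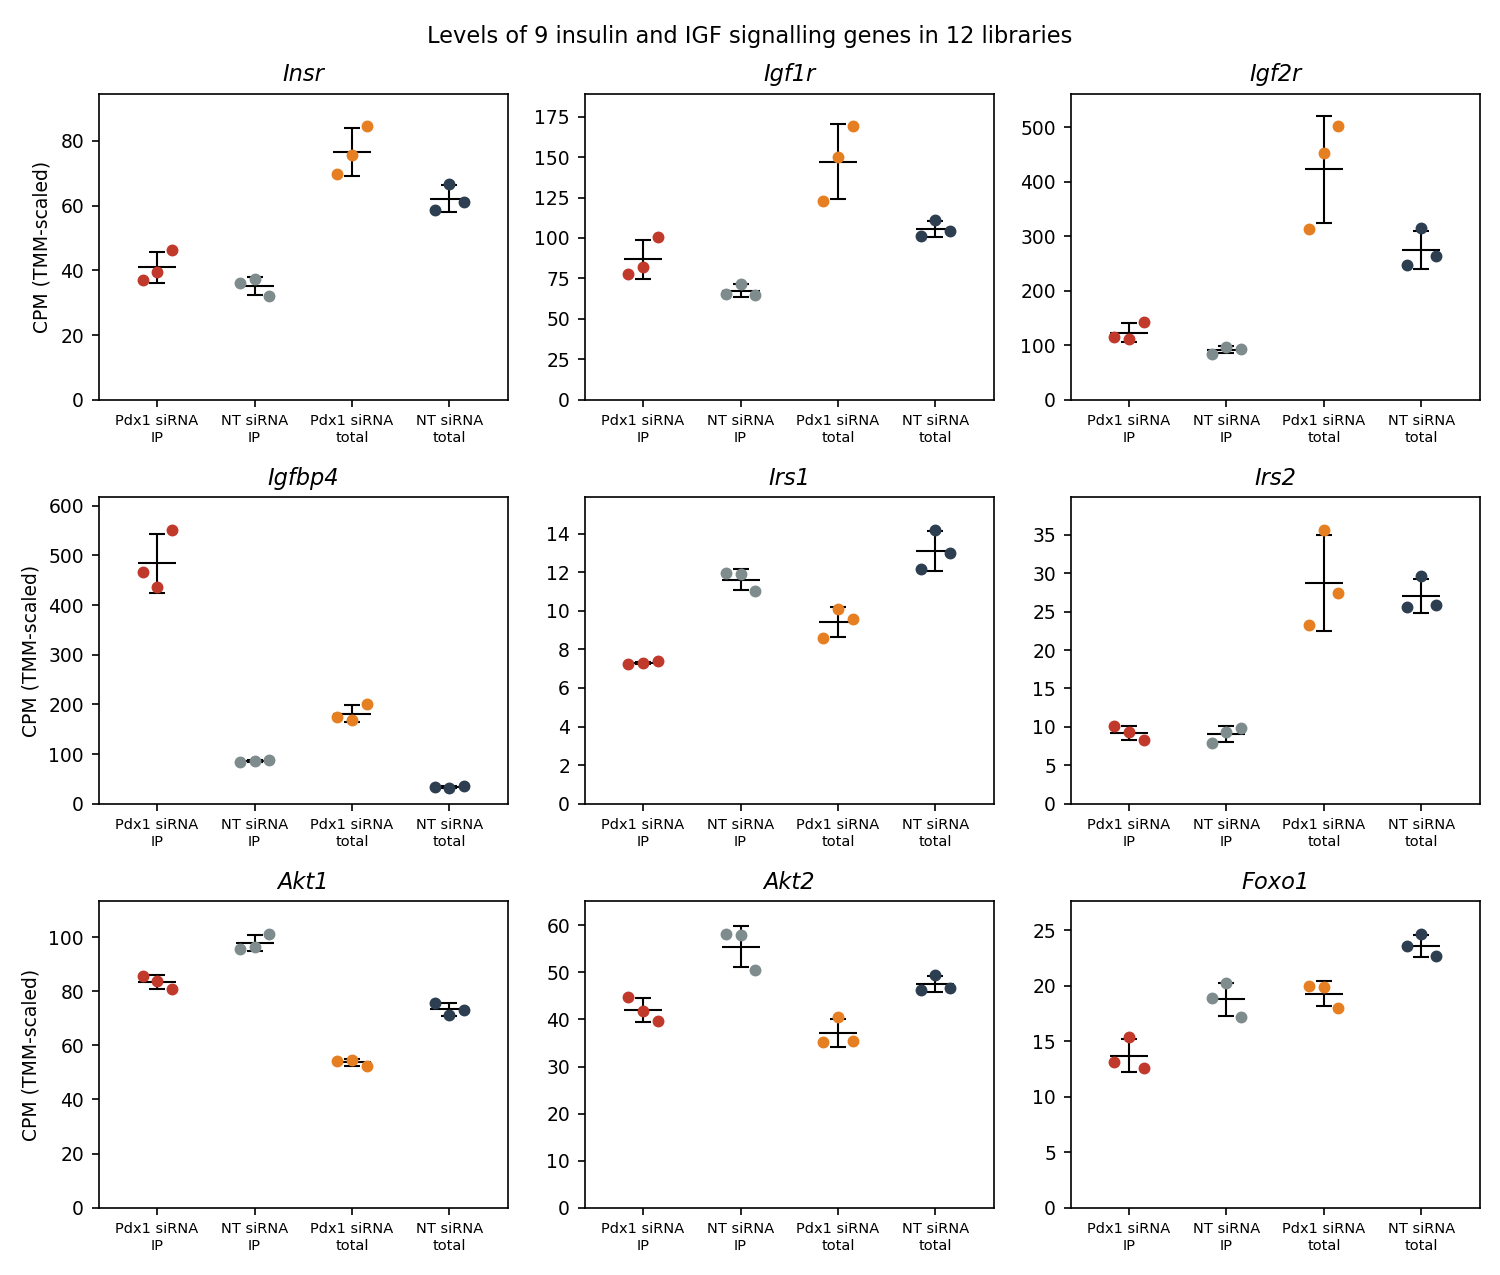
Level of each of the 9 genes in CPM (y axis, from 0, a separate scale per gene) in the 3 libraries of each group (x axis), with points for libraries and bars for mean and SD. Igfbp4 stood at 435 to 550 CPM in Pdx1 siRNA IP and 84.8 to 88.8 CPM in NT IP RNA, while Irs2 overlapped between the siRNAs in both fractions.

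With Pdx1 siRNA Igfbp4 rose more than 5-fold in both fractions, the receptor genes Igf1r and Igf2r rose 1.29-fold to 1.54-fold, and Irs1, Akt1, Akt2 and Foxo1 fell 1.17-fold to 1.59-fold. Irs2 passed the test in neither fraction. In IP RNA 3 of the 9 rose and 4 fell, where 29.2% of all genes rose and 30.4% fell. In total RNA 4 rose (Insr in addition) and 4 fell, where 23.8% of all genes rose and 29.2% fell. Of all 12643 genes 59.7% were called in IP and 53.0% in total RNA, so a call by itself does not set these genes apart. A term for the Rpl32l split reads the IP effect against NT IP replicate 3 alone. Under it the IP values ran from -0.59 for Irs1 to 2.45 for Igfbp4, and Irs2 turned to -0.11. Fewer cells holding an mRNA and less of it in each cell cannot be told apart in such bulk RNA.

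Igfbp4 (chromosome 11, 99040005 to 99052655, build GRCm38.p6, plus strand, 4 exons) showed by far the largest difference of the 9. It was at 466, 435 and 550 CPM in the Pdx1 siRNA IP libraries, against 84.8, 86.1 and 88.8 CPM in NT IP. In total RNA it was at 175, 168 and 200 CPM with Pdx1 siRNA, against 34.1, 32.5 and 36.7 CPM with NT. The groups were far from overlapping in both fractions, and every Pdx1 siRNA total library lay above every NT IP library. The rise was 5.59-fold in IP RNA (log2 fold change 2.48, SE 0.10, adjusted p = 3.4e-11) and 5.25-fold in total RNA (2.39, SE 0.10, adjusted p = 9.6e-11). Of the 12643 genes Igfbp4 had the 40th highest log2 fold change in IP and the 39th in total RNA. A term for the Rpl32l split gave 2.45 in IP RNA (adjusted p = 6.06e-09).

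Igf1r (chromosome 7, 67952257 to 68233668, plus strand, 21 exons), the receptor that IGF1 and IGF2 activate, was at 78.0, 82.1 and 101 CPM in Pdx1 siRNA IP and at 65.7, 71.8 and 64.6 CPM in NT IP RNA. In total RNA its libraries held 123, 150 and 169 CPM with Pdx1 siRNA and 101.5, 111 and 104.5 CPM with NT. Every Pdx1 siRNA library was above every NT library of its fraction. The rise was 1.29-fold in IP RNA (0.37, SE 0.11, adjusted p = 0.0112) and 1.39-fold in total RNA (0.48, SE 0.11, adjusted p = 0.00218). Without Pdx1 siRNA IP replicate 3 the IP value was 0.25 with an adjusted p of 0.0744, and a term for the Rpl32l split gave 0.43 (0.0462).

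Insr (chromosome 8, 3150922 to 3279649, minus strand, 21 exons), encoding the insulin receptor, moved less. It was at 37.0, 39.4 and 46.4 CPM in Pdx1 siRNA IP and at 36.2, 37.4 and 32.1 CPM in NT IP RNA, where the groups overlapped. In total RNA the libraries held 69.7, 75.6 and 84.5 CPM with Pdx1 siRNA and 58.6, 66.8 and 61.1 CPM with NT, without overlap. In total RNA it rose 1.23-fold (0.30, SE 0.10, adjusted p = 0.0158). In IP RNA it was at 0.22 (SE 0.10, adjusted p = 0.0683), and at 0.35 (0.0503) under a term for the Rpl32l split. These calls sit at the threshold: without Pdx1 siRNA total replicate 3 the value in total RNA was 0.22 (adjusted p = 0.0828), and without Pdx1 siRNA IP replicate 1 that in IP RNA was 0.27 (0.0393). Upper-quartile scaling also took the IP value past the threshold (0.23, 0.0495).

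Igf2r (chromosome 17, 12682406 to 12769706, minus strand, 48 exons), the IGF2 clearance and mannose-6-phosphate receptor, was at 114, 111 and 143 CPM in Pdx1 siRNA IP and at 84.6, 96.7 and 93.4 CPM in NT IP RNA. Total RNA held 313, 453.5 and 502 CPM with Pdx1 siRNA and 247.5, 315 and 264 CPM with NT. The groups did not overlap in IP RNA, whereas in total RNA the lowest Pdx1 siRNA library lay just under the highest NT library. It rose 1.34-fold in IP RNA (0.43, SE 0.15, adjusted p = 0.0236) and 1.54-fold in total RNA (0.62, SE 0.15, adjusted p = 0.00266). The IP value lost its call without NT IP replicate 1 (0.37, adjusted p = 0.0848), without Pdx1 siRNA IP replicate 3 (0.30, 0.128) and under a term for the Rpl32l split (0.40, 0.154). The call in total RNA held without any single library.

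**Figure D2:**
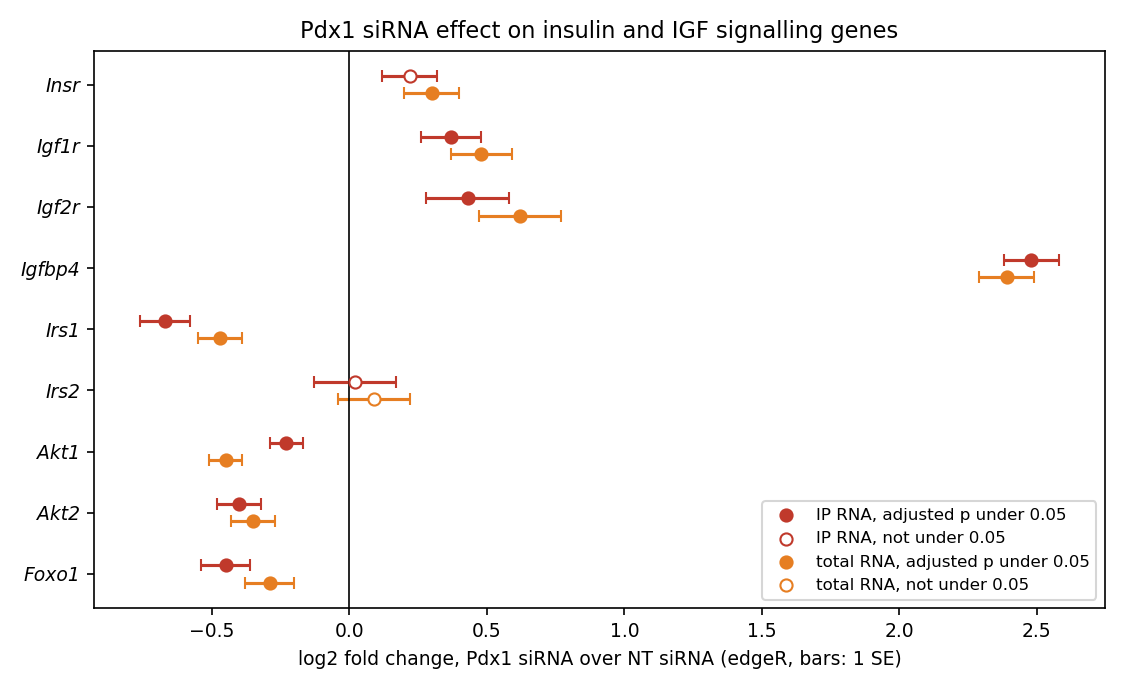
Log2 fold change of Pdx1 siRNA over NT siRNA (x axis) for each gene (y axis) in IP and in total RNA, with bars of 1 SE and filled points where the adjusted p was under 0.05. Igfbp4 stands alone at 2.48 and 2.39, the receptor genes lie right of 0, the bars of Irs2 cross 0, and Irs1, Akt1, Akt2 and Foxo1 lie left of 0.

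Of the docking protein genes Irs1 fell in both fractions and Irs2 passed the test in neither. Irs1 (chromosome 1, 82233105 to 82291439, minus strand, 2 exons) was at 7.26, 7.31 and 7.37 CPM in Pdx1 siRNA IP and at 11.95, 11.9 and 11.02 CPM in NT IP RNA. In total RNA it was at 8.59, 10.1 and 9.57 CPM with Pdx1 siRNA and at 12.1, 14.2 and 13.0 CPM with NT. The groups did not overlap in either fraction. It fell in IP RNA (log2 fold change -0.67, SE 0.09, 1.59-fold lower, adjusted p = 8.8e-06) and in total RNA (-0.47, SE 0.08, 1.39-fold lower, adjusted p = 1.6e-04). The IP value was -0.59 (adjusted p = 0.00104) under a term for the Rpl32l split. An annotated gene on the opposite strand, Gm9747, covers 30.9% of the Irs1 transcript, and whether the counting used strand is not given in the sources used here.

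Irs2 (chromosome 8, 10984681 to 11008929, minus strand, 2 exons) was at 10.1, 9.33 and 8.30 CPM in Pdx1 siRNA IP and at 7.95, 9.37 and 9.90 CPM in NT IP RNA. The total libraries were at 23.2, 35.6 and 27.4 CPM with Pdx1 siRNA and at 25.6, 29.6 and 25.9 CPM with NT. The groups overlapped in both fractions. Its log2 fold change was 0.02 in IP RNA (SE 0.15, adjusted p = 0.904) and 0.09 in total RNA (SE 0.13, adjusted p = 0.565). An interval of 2 SE either side spans -0.27 to 0.31 in IP and -0.16 to 0.34 in total RNA, so a change of the size of that of Irs1 lies outside it, and one of the size of that of Insr does not. The sign in total RNA rests on Pdx1 siRNA total replicate 2, without which the value was -0.09. In IP RNA it was -0.07 without NT IP replicate 1, -0.05 without Pdx1 siRNA IP replicate 1 and -0.11 under a term for the Rpl32l split.

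Akt1 (chromosome 12, 112653821 to 112674884, minus strand, 14 exons), encoding the AKT kinase with broad roles in growth and survival, was at 85.7, 83.7 and 80.75 CPM in Pdx1 siRNA IP and at 95.7, 96.4 and 101 CPM in NT IP RNA. The total libraries were at 54.25, 54.7 and 52.3 CPM with Pdx1 siRNA and at 75.7, 71.0 and 73.0 CPM with NT. Its libraries were the tightest of the 9 genes in total RNA, and the groups were clearly apart. It fell in IP RNA (-0.23, SE 0.06, 1.17-fold lower, adjusted p = 0.00576) and in total RNA (-0.45, SE 0.06, 1.36-fold lower, adjusted p = 3.1e-05). The IP value was -0.28 (adjusted p = 0.0257) under a term for the Rpl32l split.

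Akt2 (chromosome 7, 27591552 to 27640826, plus strand, 14 exons), encoding the AKT kinase most tied to insulin action on glucose, was at 44.7, 41.8 and 39.7 CPM in Pdx1 siRNA IP and at 58.1, 57.9 and 50.5 CPM in NT IP RNA. Total RNA held 35.25, 40.6 and 35.5 CPM with Pdx1 siRNA and 46.4, 49.4 and 46.6 CPM with NT. The groups did not overlap, and the lowest NT IP library was replicate 3. It fell in IP RNA (-0.40, SE 0.08, 1.32-fold lower, adjusted p = 5.5e-04) and in total RNA (-0.35, SE 0.08, 1.28-fold lower, adjusted p = 0.00177). The pseudogene Akt2-ps matches 31.8% of the Akt2 transcript, the largest share with a copy among the 9, and a term for the Rpl32l split took the IP value to -0.26 (adjusted p = 0.0568).

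Foxo1 (chromosome 3, 52268337 to 52350109, plus strand, 3 exons) was at 13.1, 15.4 and 12.6 CPM in Pdx1 siRNA IP and at 18.9, 20.2 and 17.2 CPM in NT IP RNA. The total libraries were at 20.0, 19.9 and 17.96 CPM with Pdx1 siRNA and at 23.5, 24.6 and 22.7 CPM with NT. The groups did not overlap in either fraction. It fell in IP RNA (-0.45, SE 0.09, 1.37-fold lower, adjusted p = 5.0e-04) and in total RNA (-0.29, SE 0.09, 1.22-fold lower, adjusted p = 0.0094). Without NT total replicate 2 the value in total RNA was -0.22 (adjusted p = 0.0741), and the IP value was -0.32 (0.0399) under a term for the Rpl32l split. Of the 9 genes 7 had groups that did not overlap in IP RNA, as had 64.9% of all genes, and 7 in total RNA, as had 58.8% of all genes.

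Whether the siRNA effect differed between the fractions was asked by an interaction term, and no gene of the 9 passed. The edgeR interaction called 0 of the 9, and 0.229% of all genes. At an unadjusted p under 0.05 it took 1 of the 9, Akt1, and 17.0% of all genes, and DESeq2 called 0 of the 9 and 2.59% of all genes. For Akt1 the effect in IP minus that in total RNA was 0.22 (SE 0.09, adjusted p = 0.231), its fall being smaller in IP RNA. The other differences were -0.20 (SE 0.12) for Irs1, -0.19 (SE 0.21) for Igf2r, -0.16 (SE 0.12) for Foxo1, -0.11 (SE 0.16) for Igf1r, 0.09 (SE 0.13) for Igfbp4, -0.08 (SE 0.14) for Insr, -0.07 (SE 0.19) for Irs2 and -0.05 (SE 0.11) for Akt2. With standard errors of 0.09 to 0.21 a difference of the size of the receptor genes' rise could be missed.

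The genes differed widely in their level in IP RNA relative to total RNA, and this can be read in the levels given above. Levels are scaled within each library, so the comparison is relative to other genes and gives no share of an mRNA recovered with ribosomes. Igfbp4 was 2.67-fold higher in IP than in total RNA with Pdx1 siRNA (log2 fold change 1.42, SE 0.10, adjusted p = 7.4e-09) and 2.51-fold higher with NT (1.33, SE 0.10, adjusted p = 3.1e-08). In NT cells that was the 20th highest value of all 12643 genes, and the value with Pdx1 siRNA was the 126th highest. Igf2r was 3.44-fold lower in IP than in total RNA with Pdx1 siRNA (-1.78, SE 0.15, adjusted p = 6.2e-08) and 3.01-fold lower with NT (-1.59, SE 0.15, adjusted p = 3.6e-07). Irs2 was 3.13-fold lower with Pdx1 siRNA (-1.65, SE 0.14, adjusted p = 4.9e-08) and 2.98-fold lower with NT (-1.58, SE 0.14, adjusted p = 1.3e-07). In NT cells Igf2r and Irs2 were at the 205th and 212th lowest places of all genes, and with Pdx1 siRNA at the 262nd and 330th. For these 3 genes the IP and total libraries lay far apart under each siRNA.

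The remaining genes lay between. Insr was at -0.90 (SE 0.10) with Pdx1 siRNA and -0.82 (SE 0.10) with NT, and Igf1r at -0.76 (SE 0.11) and -0.65 (SE 0.11). Akt1 was higher in IP RNA, at 0.63 (SE 0.06) with Pdx1 siRNA and 0.42 (SE 0.06) with NT. Foxo1 was lower, at -0.49 (SE 0.09) and -0.33 (SE 0.09). Irs1 was at -0.37 (SE 0.09, adjusted p = 0.00121) with Pdx1 siRNA and at -0.17 (SE 0.08, adjusted p = 0.0637) with NT. Akt2 was at 0.18 (SE 0.08, adjusted p = 0.0587) with Pdx1 siRNA and at 0.23 (SE 0.08, adjusted p = 0.0198) with NT. With Pdx1 siRNA 2 of the 9 were called higher and 6 lower in IP RNA, where 36.3% of all genes were higher, 38.7% lower and 75.1% either. With NT 3 were called higher and 5 lower, where 33.8% of all genes were higher, 35.9% lower and 69.7% either. The IP and total libraries did not overlap for 8 of the 9 with Pdx1 siRNA, as for 73.5% of all genes, and for 9 of the 9 with NT, as for 77.5% of all genes. Without NT IP replicate 1 the NT value of Akt2 was 0.19 (adjusted p = 0.0819). Under a term for the Rpl32l split the Pdx1 siRNA values were 0.38 (adjusted p = 0.0305) for Akt2, -0.26 (0.177) for Irs1 and -0.30 (0.104) for Foxo1. The Pdx1 siRNA value of Akt2 also passed the test with RLE scaling (0.20, adjusted p = 0.0377), with DESeq2 (0.20, adjusted p = 0.0325), without Pdx1 siRNA IP replicate 3 (0.23, adjusted p = 0.0291) and without Pdx1 siRNA total replicate 2 (0.25, adjusted p = 0.018).

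Among the 9 genes the sign of the IP over total value split with transcript length, while their order did not follow it. Irs2, the shortest of those below 0, was at -1.58 with NT, and Igf1r, the longest, at -0.65. The 3 genes with transcripts under 5 kb, Akt1 (2690 bases), Igfbp4 (3831) and Akt2 (4544), were those above 0. The 6 others, Irs2 (6323), Foxo1 (8665), Igf2r (8887), Irs1 (9144), Insr (9355) and Igf1r (11409), were below 0. Over all genes the median log2 ratio of IP over total RNA fell with length. It was 0.61 with Pdx1 siRNA and 0.50 with NT in 3459 genes under 2 kb, and -0.78 and -0.66 in 1495 genes of 6 kb or more. In the 7570 genes between, it was -0.13 with Pdx1 siRNA and -0.11 with NT, and 59.0% and 59.4% of them lay below 0. Akt1, Igfbp4 and Akt2 belong to this middle class, so most genes of their class did not share their sign. Against the median of their length class Akt1, Igfbp4, Akt2, Irs1 and Foxo1 lay higher, and Igf1r lay near it. Irs2, Igf2r and, by less, Insr lay lower. The part of length in these differences was not tested.

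**Figure D3:**
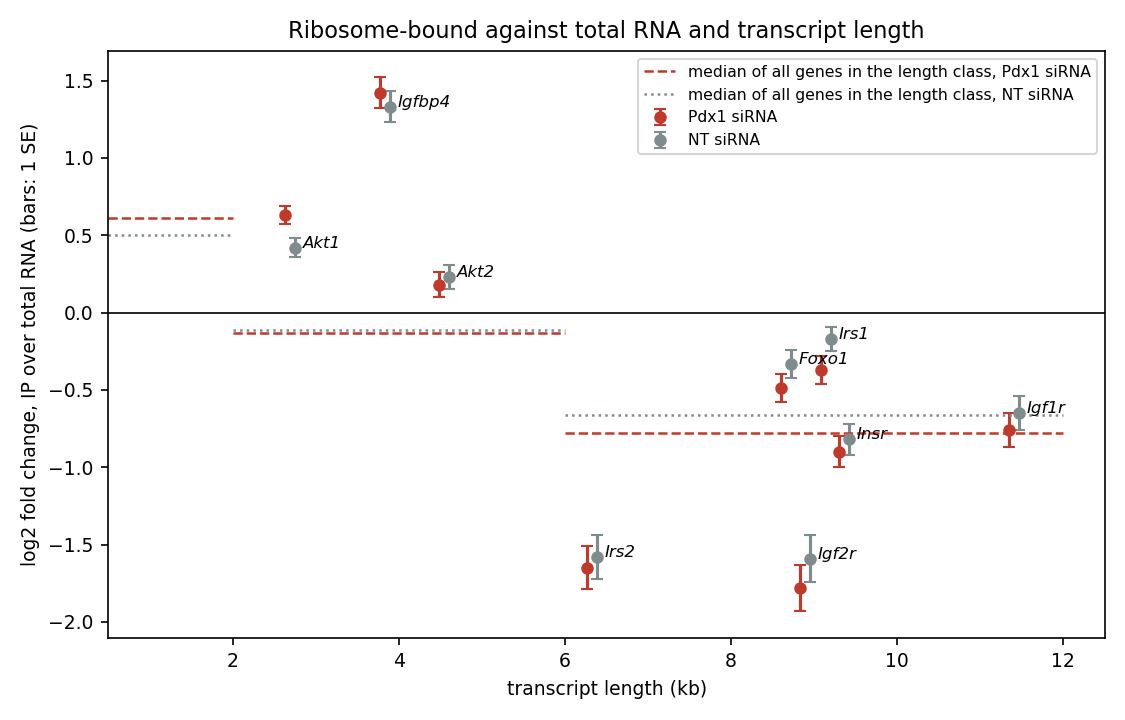
Log2 fold change of IP over total RNA (y axis, bars of 1 SE) against transcript length in kb (x axis) for the 9 genes under each siRNA (points set slightly apart sideways), with the median of all genes in 3 length classes as broken lines. Igfbp4 lies at 1.42 and 1.33, far above the line of its class, and Igf2r and Irs2 lie below -1.5, under theirs.

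Per kilobase of transcript, which allows genes to be set against each other, the order of the 9 changed with the siRNA. In Pdx1 siRNA IP RNA Igfbp4 came first at 126 ± 15.5 CPM per kb (SD, n = 3) and Akt1 second at 31.0 ± 0.918, while in NT IP RNA Akt1 came first at 36.3 ± 1.07 and Igfbp4 second at 22.6 ± 0.527. In Pdx1 siRNA total RNA Igf2r (47.6 ± 11.0) and Igfbp4 (47.2 ± 4.41) led and overlapped. In NT total RNA Igf2r (31.0 ± 3.95) and Akt1 (27.2 ± 0.881) led and overlapped, and Igfbp4 (8.995 ± 0.555) was the fifth, overlapping with Igf1r (9.26 ± 0.421). Igfbp4 thus made up 64.4% of the summed level of the 9 genes in Pdx1 siRNA IP RNA against 23.5% in NT IP RNA, and 31.1% in Pdx1 siRNA total RNA against 8.82% in NT total RNA. Irs1 was the lowest of the 9 in all 4 groups, at 0.800 ± 0.00633 CPM per kb in Pdx1 siRNA IP, 1.27 ± 0.057 in NT IP, 1.03 ± 0.0843 in Pdx1 siRNA total and 1.43 ± 0.112 in NT total RNA. Of the 8 neighbouring pairs in that order, the other pairs whose libraries overlapped were Akt2 with Igf1r and Foxo1 with Irs2 in Pdx1 siRNA IP, Irs2 with Irs1 in NT IP, and Insr with Akt2 in Pdx1 siRNA total RNA.

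Ratios of related genes within a library do not depend on the scaling between libraries. Irs2 to Irs1, per kilobase, was 2.01, 1.85 and 1.63 in Pdx1 siRNA IP and 0.962, 1.14 and 1.30 in NT IP RNA. In total RNA the ratio was 3.91, 5.09 and 4.14 with Pdx1 siRNA and 3.05, 3.02 and 2.89 with NT. The ratio was higher in every Pdx1 siRNA library than in any NT library of its fraction, by 0.70 on the log2 scale in IP and 0.54 in total RNA. Insr to Igf1r averaged 0.575 ± 0.012 in Pdx1 siRNA IP and 0.637 ± 0.033 in NT IP (SD, n = 3 each), and 0.639 ± 0.046 in Pdx1 siRNA total and 0.717 ± 0.016 in NT total RNA, again without overlap. In the exact two-sided permutation test these 4 comparisons gave p = 0.10, the smallest that 3 libraries against 3 allow, and 0.15 after adjustment over the 6 ratio tests. Akt2 to Akt1 averaged 0.299 ± 0.0092 in Pdx1 siRNA IP and 0.337 ± 0.036 in NT IP RNA (exact permutation p = 0.30, adjusted 0.36), and 0.409 ± 0.028 in Pdx1 siRNA total and 0.384 ± 0.025 in NT total RNA (exact permutation p = 0.40, adjusted 0.40). The NT IP ratios of Akt2 to Akt1 were 0.359, 0.356 and, in replicate 3, 0.296.

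**Figure D4:**
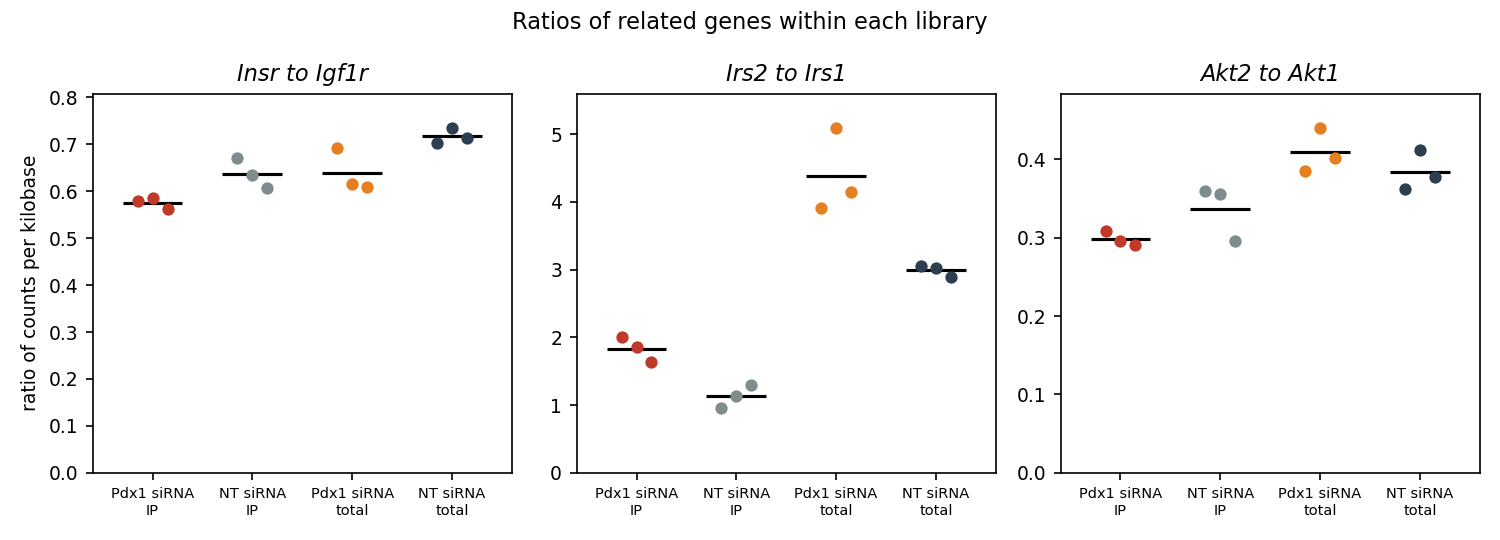
Ratio of counts per kilobase (y axis, from 0, a separate scale per ratio) for 3 pairs of related genes in the 3 libraries of each group (x axis), with a line at the mean. Irs2 to Irs1 separates the siRNAs in both fractions (1.63 to 2.01 against 0.962 to 1.30 in IP RNA), while Akt2 to Akt1 overlaps.

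Around these 9 genes, 8 lists of the pathway named 149 other genes, of which 123 were measured. With Pdx1 siRNA 26 of the 123 (21.1%) rose and 38 (30.9%) fell in IP RNA, with a median log2 fold change of -0.07, and 21 (17.1%) rose and 44 (35.8%) fell in total RNA, with a median of -0.11. Over all genes 29.2% rose and 30.4% fell in IP RNA (median -0.01), and 23.8% rose and 29.2% fell in total RNA (median -0.04). No set test was run, and the counts are a description.

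Of 3 measured ligand genes Igf2, the fetal growth factor ligand of IGF1R, rose and Ins1 fell in both fractions, while Ins2 passed the test in neither. Igf2 stood at 5450 ± 443 CPM in Pdx1 siRNA IP and 4500 ± 250 in NT IP, and at 7710 ± 650 in Pdx1 siRNA total and 6360 ± 115 in NT total RNA (0.28, SE 0.10, in both fractions, adjusted p = 0.026 in IP and 0.0289 in total RNA). A read-through gene model, Gm49394, shares 76.2% of its transcript. Its call in IP RNA ended without NT IP replicate 1 (0.24, adjusted p = 0.114) or 2 (0.28, 0.0666), without Pdx1 siRNA IP replicate 3 (0.21, 0.102) under a term for the Rpl32l split (0.21, 0.299) and when only the IP libraries were fitted (0.27, 0.0585). In total RNA it ended without NT replicate 1 (0.31, 0.0517) and without Pdx1 siRNA replicate 2 (0.28, 0.0591) or 3 (0.21, 0.0988), and when only the total libraries were fitted (0.31, 0.0588). Ins1 was at -0.28 (SE 0.11) in IP RNA (adjusted p = 0.0415) and -0.39 (SE 0.11) in total RNA (0.00901). Its IP call ended under a term for the Rpl32l split (-0.34, 0.126), when only the IP libraries were fitted (-0.29, 0.0993), and without any NT IP library or Pdx1 siRNA IP replicate 1 or 2 (-0.31 to -0.19, 0.0732 to 0.155), and its call in total RNA without NT replicate 1 (-0.32, 0.0618).

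Of the 5 measured genes for other IGF binding proteins and for their proteases, 3 rose and 2 fell in each fraction, where 59.7% of all genes were called in IP and 53.0% in total RNA. Igfbp7, a low-affinity relative of the IGF binding proteins, was at 77.8 ± 10.3 CPM in Pdx1 siRNA IP and 28.7 ± 0.181 in NT IP (1.44, SE 0.09), and at 73.8 ± 2.76 in Pdx1 siRNA total and 26.0 ± 1.46 in NT total RNA (1.50, SE 0.09). Pappa2, a protease of IGF binding proteins, rose by 0.69 in IP and 0.70 in total RNA (SE 0.14 each), and Igfals, encoding a subunit that stabilises circulating IGF complexes, by 0.66 (SE 0.12) and 0.83 (SE 0.11). The stanniocalcin genes Stc1 and Stc2, whose products inhibit such proteases, fell in both fractions. Stc1 was at -0.96 (SE 0.16) in IP and -0.68 (SE 0.15) in total RNA, and Stc2 at -1.03 (SE 0.15) and -0.91 (SE 0.15). Stc2 was at 2.68 ± 0.168 CPM in Pdx1 siRNA IP and 5.48 ± 0.213 in NT IP RNA. Adjusted p-values of these 5 genes were 1.7e-04, 4.6e-04, 1.0e-04, 2.3e-05 and 2.1e-09 for Igfals, Pappa2, Stc1, Stc2 and Igfbp7 in IP RNA.

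Next to the receptors, 5 of 25 adaptor and inhibitor genes rose and 6 fell in IP RNA, and 4 rose and 3 fell in total RNA (medians 0.02 and 0.03). As shares, 20.0% rose and 24% fell in IP RNA, against 29.2% and 30.4% of all genes, and 16% rose and 12% fell in total RNA, against 23.8% and 29.2%. Insrr, encoding the insulin receptor-related receptor, rose by 0.70 (SE 0.09, adjusted p = 1.3e-05) in IP and 0.66 (SE 0.09, 2.5e-05) in total RNA. Grb14, an adaptor that inhibits the insulin receptor, rose by 0.47 (SE 0.09) and 0.51 (SE 0.09). Dok1, a docking protein, rose by 0.70 (SE 0.12) in IP RNA and was at 0.06 (adjusted p = 0.713) in total RNA. That difference did not pass the interaction test (0.64, SE 0.18, adjusted p = 0.0986). The group means of Dok1 were low, from 1.87 CPM in NT total to 3.96 CPM in Pdx1 siRNA IP RNA. The adaptor gene Crk fell (-0.34, SE 0.10, in IP and -0.40, SE 0.10, in total RNA), as did the RAS exchange factor gene Sos1 (-0.54, SE 0.10, and -0.28, SE 0.09). Crkl fell in IP RNA (-0.35, SE 0.09) and was at -0.18 (adjusted p = 0.077) in total RNA. A term for the Rpl32l split put Crk at -0.22 (adjusted p = 0.22) and Crkl at -0.28 (0.0799) in IP RNA. Sos1 in total RNA was at -0.20 (0.116) without NT replicate 2, -0.24 (0.0755) without NT replicate 3 and -0.26 (0.0532) without Pdx1 siRNA replicate 3.

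Of 14 genes of PI3-kinase, PDK1 and the mTORC2 complex, 2 rose and 6 fell in IP RNA and 1 rose and 7 fell in total RNA (medians -0.19 and -0.21). The share that fell was 42.9% in IP RNA, against 30.4% of all genes, and 50% in total RNA, against 29.2%. The share that rose was 14.3% in IP RNA, against 29.2% of all genes, and 7.14% in total RNA, against 23.8%. The catalytic subunit gene Pik3ca fell to 18.4 ± 2.07 CPM in Pdx1 siRNA IP, against 27.2 ± 0.55 in NT IP (-0.56, SE 0.08, adjusted p = 1.8e-05), and to 27.2 ± 0.761 in Pdx1 siRNA total, against 36.6 ± 0.402 in NT total RNA (-0.43, SE 0.07, adjusted p = 1.9e-04). Pik3cb fell (-0.63, SE 0.10, in IP and -0.48, SE 0.09, in total RNA). Pdpk1, the kinase that activates AKT at membranes, fell (-0.52, SE 0.09, adjusted p = 1.4e-04 in IP and -0.33, SE 0.09, 0.00441 in total RNA). Counted on its second transcript it was at -0.40 (0.149) in IP RNA. The regulatory subunit gene Pik3r3 rose by 0.69 (SE 0.07) and 0.51 (SE 0.07), with 24.5% of its transcript shared with the model Gm49337. Pik3r2 rose by 0.31 (SE 0.08, adjusted p = 0.00493) in IP RNA, at 0.22 (0.145) under a term for the Rpl32l split, and was at 0.05 (0.647) in total RNA.

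Inhibitors of PI3-kinase and AKT went both ways, with 5 of 16 higher and 4 lower in IP and 2 higher and 6 lower in total RNA (medians 0.04 and -0.08). Of all genes 29.2% were higher and 30.4% lower in IP RNA and 23.8% higher and 29.2% lower in total RNA. Phlda3, whose product competes with AKT for membrane lipids, was at 45.4 ± 2.85 CPM in Pdx1 siRNA IP and 4.03 ± 0.523 in NT IP (3.50, SE 0.10), and at 18.4 ± 0.805 in Pdx1 siRNA total and 2.41 ± 0.225 in NT total RNA (2.93, SE 0.10). Its log2 fold changes exceeded those of Igfbp4 in both fractions. Ppp2r5b, a regulatory subunit of the phosphatase PP2A, rose by 0.66 (SE 0.08) in IP and 0.42 (SE 0.08) in total RNA. The pseudokinase gene Trib1 rose by 0.37 (SE 0.08) in IP RNA and was at 0.17 (adjusted p = 0.0706) in total RNA, while Trib3 fell (-0.88, SE 0.12, in IP and -1.23, SE 0.13, in total RNA). The AKT phosphatase genes Phlpp1 and Phlpp2 fell. Phlpp1 was at -0.43 (SE 0.12) in IP and -0.33 (SE 0.11) in total RNA, and Phlpp2 at -0.45 (SE 0.08) and -0.39 (SE 0.08). In total RNA Phlpp1 was at -0.23 without NT replicate 2 (adjusted p = 0.114) or without Pdx1 siRNA replicate 1 (0.0592). Trib1 in total RNA passed the test under 5 alternatives: RLE scaling (0.19, 0.0423), upper-quartile scaling (0.22, 0.0208), without Ins1 and Ins2 (0.19, 0.0358), with only the total libraries fitted (0.19, 0.0398) and without NT replicate 3 (0.22, 0.0485).

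Among AKT substrates and mTORC1 genes 2 of 22 rose and 9 fell in each fraction (medians -0.11 in IP and -0.17 in total RNA). That is 9.09% higher and 40.9% lower, against 29.2% and 30.4% of all genes in IP RNA and 23.8% and 29.2% in total RNA. Eif4ebp1, a repressor of translation that mTORC1 inactivates, was at 25.2 ± 0.968 CPM in Pdx1 siRNA IP and 45.0 ± 4.79 in NT IP (-0.84, SE 0.10), and at 10.2 ± 0.0209 in Pdx1 siRNA total and 24.5 ± 3.44 in NT total RNA (-1.26, SE 0.10). Its relative Eif4ebp2 fell (-0.36, SE 0.12, adjusted p = 0.0166 in IP and -0.55, SE 0.10, 2.8e-04 in total RNA). Mdm2, encoding the ubiquitin ligase of p53 and an AKT substrate, rose by 0.65 (SE 0.06) in IP and 0.42 (SE 0.06) in total RNA. Foxo4 rose by 0.26 (SE 0.10, adjusted p = 0.0394) in IP RNA and was at 0.05 in total RNA. The AKT-related kinase gene Sgk1 was at -0.09 (adjusted p = 0.615) in IP RNA and rose by 0.61 (SE 0.12, 4.0e-04) in total RNA (interaction -0.71, SE 0.18, adjusted p = 0.0729). The group means of Sgk1 were low, from 2.26 CPM in Pdx1 siRNA IP to 4.82 CPM in Pdx1 siRNA total RNA. Under a term for the Rpl32l split the IP values were -0.14 (0.482) for Eif4ebp2 and 0.26 (0.175) for Foxo4. Eif4ebp2 lost its IP call without NT replicate 1 (-0.33, 0.0521) or 2 (-0.29, 0.0752) or Pdx1 siRNA replicate 1 (-0.26, 0.0589), and Foxo4 without NT replicate 2 (0.21, 0.142) or 3 (0.26, 0.0722) or Pdx1 siRNA replicate 1 (0.15, 0.224) or 2 (0.29, 0.0514).

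In the RAS and MAP kinase branch 5 of 18 genes rose and 5 fell in IP RNA, and 4 rose and 6 fell in total RNA (medians -0.06 and -0.12). That is 27.8% in each direction in IP RNA, against 29.2% and 30.4% of all genes, and 22.2% higher and 33.3% lower in total RNA, against 23.8% and 29.2%. Dusp6, the phosphatase that ERK induces against itself, was at 30.8 ± 2.45 CPM in Pdx1 siRNA IP and 11.0 ± 0.706 in NT IP (1.48, SE 0.09), and at 39.6 ± 1.78 in Pdx1 siRNA total and 15.3 ± 1.51 in NT total RNA (1.38, SE 0.09). Spry1, another feedback inhibitor, rose by 1.07 (SE 0.14) in IP and 0.56 (SE 0.12) in total RNA at levels under 3 CPM. Rps6ka2 rose by 0.45 (SE 0.07) and 0.36 (SE 0.07), with 57.4% of its transcript matched elsewhere, which leaves its counts uncertain. Nras fell (-0.46, SE 0.10, in IP and -0.57, SE 0.10, in total RNA), as did the ERK kinase gene Map2k1 (-0.35, SE 0.10, and -0.34, SE 0.10). Hras was at -0.07 (adjusted p = 0.615) in IP RNA and fell in total RNA (-0.50, SE 0.11, 0.00158). That difference did not pass the interaction test (0.43, SE 0.16, adjusted p = 0.178). Map2k1 was at -0.29 (0.098) in IP RNA under a term for the Rpl32l split and at -0.24 (0.0713) in total RNA without NT replicate 2.

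Of 25 measured genes that have been reported as FOXO1 targets, Insr and Irs2 included, 4 rose and 6 fell in IP RNA and 5 rose and 11 fell in total RNA (medians -0.02 and -0.17). As shares, 16% rose and 24% fell in IP RNA, against 29.2% and 30.4% of all genes, and 20.0% rose and 44.0% fell in total RNA, against 23.8% and 29.2%. Sesn2, encoding sestrin 2, rose by 0.80 (SE 0.09) in IP and 0.76 (SE 0.08) in total RNA. Txnip, the thioredoxin-interacting protein gene that glucose induces, rose by 0.56 (SE 0.09) and 0.51 (SE 0.09), with 21.4% of its transcript shared with Gm15441 on the opposite strand. Mxi1 fell (-0.63, SE 0.11, in IP and -0.82, SE 0.10, in total RNA). Bnip3 fell (-1.82, SE 0.21, in IP and -1.76, SE 0.21, in total RNA), but copies match 94.2% of its transcript. Pik3ca and Trib1, on this list too, are given above.

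**Figure D5:**
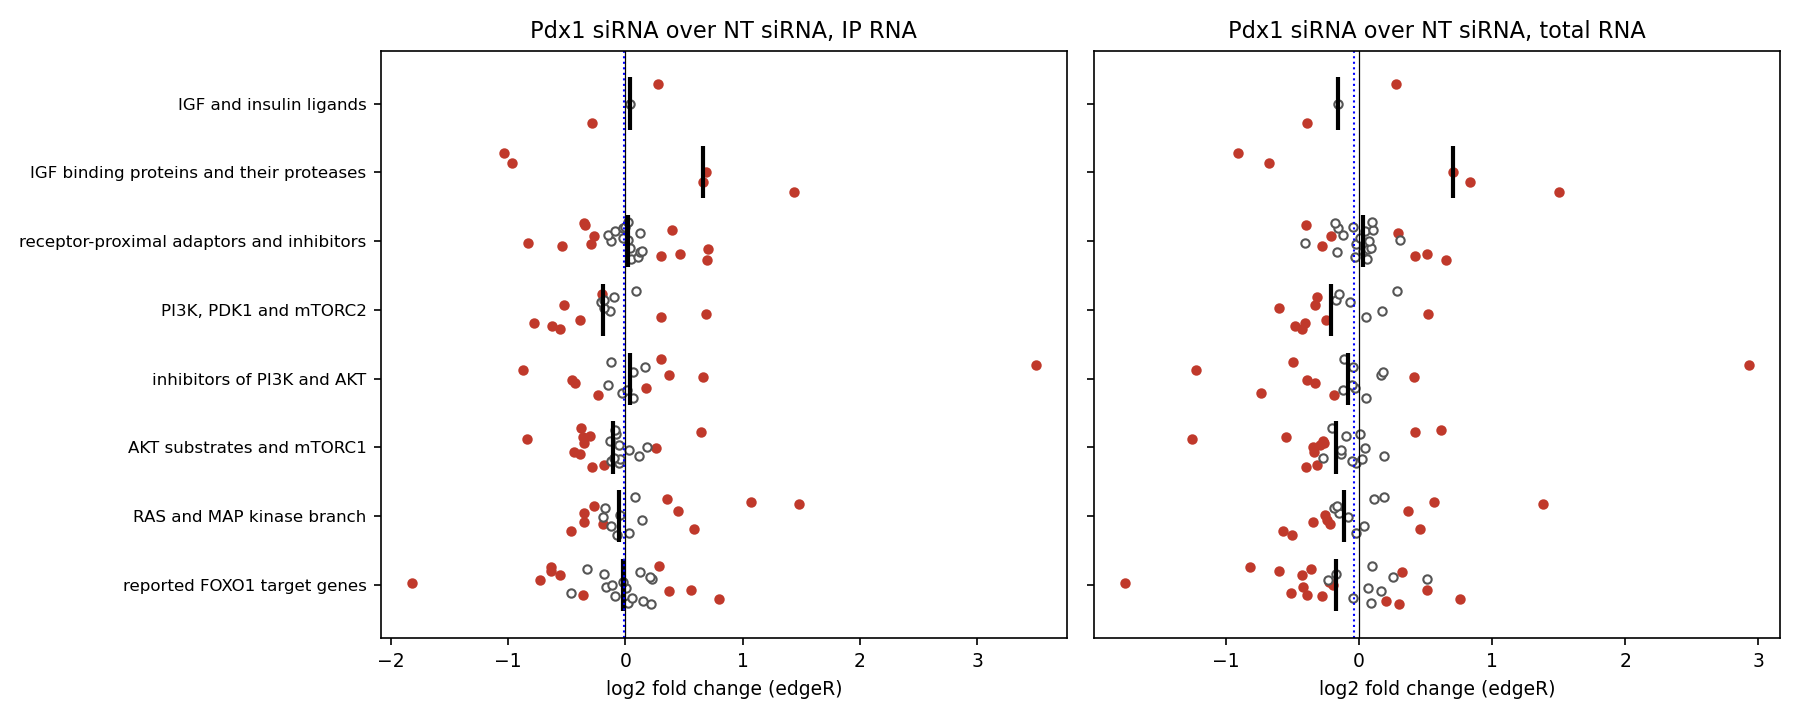
Log2 fold change of Pdx1 siRNA over NT siRNA (x axis) for the measured genes of 8 pathway lists (y axis) in IP (left) and total RNA (right). Filled points had an adjusted p under 0.05, thick bars are list medians and the dotted line is the median of all genes. The medians of the PI3-kinase list (-0.19 and -0.21) lie left of it.

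The genes whose levels followed those of the 9 most closely over the 12 libraries were found by Pearson's r of log2(CPM + 0.5), leaving out genes whose mean was under 5 CPM. Gene models without a proper name (such as Gm and Rik names) and the 9 genes themselves were passed over too. The libraries share their group, siRNA and fraction, so r mostly reflects the 4 group levels and carries no test. Igfbp4 was followed by Itm2b (r = 0.998) and Cthrc1 (0.997). Cthrc1, a secreted glycoprotein gene, averaged 240 CPM in Pdx1 siRNA IP, 73.7 in NT IP, 112 in Pdx1 siRNA total and 38.4 in NT total RNA. Irs1 was followed by the pyruvate kinase gene Pkm and by Sytl4 (both 0.989), and Foxo1 by Fubp3 (0.991) and Klf10 (0.988). Irs2 was followed by Sptan1 and Chd3 (both 0.995), Insr by Armcx4 and Atp8b1 (both 0.997), Igf1r by Rab3gap1 (0.997) and Snx19 (0.995), and Igf2r by Nbas and Creb3l2 (both 0.997). Akt1 was followed by Myg1 and Pafah1b3 (both 0.995), and Akt2 less closely by Kctd10 (0.977) and Coro1c (0.972).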

How the data were processed

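RNA of MIN6 cells was measured in 12 libraries. The authors deposited raw counts of reads per RefSeq transcript (17133 in each table), for which TopHat2, featureCounts and mm10 are named, per the submitters' processing notes. Versions, strand use and the treatment of reads with several matches were not given there. A RefSeq table of GRCm38.p6 gave symbols to 16838 transcripts, and where a gene had several the one with most counts over all libraries was used. The 295 transcripts without a symbol held 0.58% to 0.83% of a library's counts and were left out.

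edgeR 4.0.16 in R 4.3.3 fitted all libraries with a mean per group, TMM scaling and the default filter, which removed 0 genes, and p-values were adjusted over all 12643 genes by the Benjamini-Hochberg method. The test was tried on simulated data first. The SE is the log2 fold change divided by the root of the F statistic. DESeq2 1.42.0 was an alternative. Transcript lengths came from GENCODE M21 by RefSeq accession (99.1% of genes). Copies were sought with minimap2 2.31 (at least 100 bases at 95% identity), and exons shared with other annotated genes were measured. The tables carry no molecular identifiers, so counting alone understates the error.

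The members, lists and tests were chosen with earlier results of these data known. Named genes were the 9 members, Pdx1, up to 3 genes per list and direction (those that passed the test with the lowest p in either fraction), and the 2 most alike per member. A gene that this rule names is not reported here. Ins2, Spp1 and Rpl32l were named after their values were seen. Alternatives were scaling, filter, DESeq2, transcript choice, Ins1 and Ins2 left out, replicate number as a block, only the libraries compared, a term for the Rpl32l split, and each library left out (for the ratios this was added after seeing the data).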

Additional observations from a re-analysis of the deposited data

How the results depend on the processing

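Over all settings 5 to 8 of the 9 genes were called in IP RNA and 7 to 8 in total RNA, and the interaction called 0 in each. Of all 12643 genes the fit used for the results called 7542 in IP and 6696 in total RNA. Over the settings these counts reached 7926 in IP RNA and ran from 5578 to 7231 in total RNA. The lowest count in IP RNA came from the term for the Rpl32l split, which rests on NT IP replicate 3, and is not given. Calls that held over the settings therefore do not by themselves set the 9 genes apart. Over all genes the interaction count of 29 moved most: 52 with upper-quartile scaling, 327 with DESeq2, 54 without Ins1 and Ins2, 373 with the replicate block, 5 under a term for the Rpl32l split, and 4 (without NT IP replicate 1 or NT total replicate 3) to 571 (without NT IP replicate 3) when a library was left out. The cause was not tested. Some values near 0 that passed no test turned sign. Under a term for the Rpl32l split these were Irs2 (-0.11) and Sgk1 (0.03) in IP RNA and the interactions of Insr (0.05) and Akt2 (0.09). When each library was left out in turn, Irs2 ranged from -0.07 to 0.10 in IP and from -0.09 to 0.22 in total RNA, Hras from -0.16 to 0.00 in IP RNA, and Dok1 from 0.00 to 0.16 and Pik3r2 from -0.01 to 0.13 in total RNA. The interactions ranged from -0.04 to 0.17 for Igfbp4, -0.20 to 0.12 for Irs2 and -0.13 to 0.02 for Akt2. Same-numbered libraries deviated together (r over 0.1) in 6 of 12 pairs (r = -0.054 to 0.514), short of the every pair required, so the block is not used beside the results. The data hold a hint of shared numbers: the mean r was 0.17 for the same number and -0.09 for different ones, and own number was highest in 16 of 24 comparisons of a library with another group. The replicate block moved the counts of all genes to 7926 in IP and 7231 in total RNA, and among the 9 genes it added the calls of Akt2 (0.18, adjusted p = 0.0275, Pdx1 siRNA) and Irs1 (-0.17, adjusted p = 0.0487, NT) between fractions. It also added Crkl in total RNA (-0.18, adjusted p = 0.0385). The fit of only the libraries compared gives no separate value for the interaction, which uses all 12. Irs1 and Irs2 had the fewest counts, with 173 in the lowest library.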
